A study of Mus musculus with 9 samples.

Results

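The 9 genes described here carry, make, break down or sense retinoic acid, and were followed in midbrain tissue of mouse fetuses at E13.5. They are the retinoic acid binding proteins Crabp1 and Crabp2, the synthesizing enzymes Aldh1a2 and Aldh1a3, the degrading enzymes Cyp26a1 and Cyp26b1, the receptors Rara and Rarb, and the retinol importer Stra6. The genes were chosen by symbol, as named parts of the retinoid pathway, and all 9 were found among the 21356 distinct symbols of the table. The whole tissue had been sequenced as poly-A selected RNA in 9 libraries on a C57BL/6 background, with 3 libraries for each genotype. The floxed control was Gpr161f/f and carried no Cre. The Cre control was Gpr161f/+;Wnt1-Cre, with 1 floxed allele, and the cKO was Gpr161f/f;Wnt1-Cre (spelled with Gpt161 in the titles), with both alleles floxed. Gpr161 encodes a receptor of the primary cilium that restrains Sonic hedgehog signaling. Wnt1-Cre acts in the Wnt1 lineage, which takes in the dorsal midbrain neuroectoderm and the neural crest, and recombination in the dissected tissue was not measured here. The cKO differed from the floxed control by both the transgene and the deletion, which cannot be told apart in that comparison, and from the Cre control by the number of floxed alleles.

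Retinoic acid is made from vitamin A. Retinol enters a cell through the Stra6 transporter, is oxidized to retinaldehyde, and is turned into retinoic acid by the Aldh1a enzymes. Inside the cell, Crabp1 and Crabp2 bind the acid, the Cyp26 enzymes oxidize it further and so remove it, and the receptors of the Rar family, paired with Rxr partners, sit on DNA and switch genes on when the acid binds. In the embryo, a source of Aldh1a2 activity and a sink of Cyp26 activity set up gradients along the neural tube, and excess retinoic acid disturbs the hindbrain, the midbrain and the cranial neural crest.

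The deposited values are log2 expression values, and the authors' transformation is not given in the sources used here. From the values, libraries are on a common scale and weak genes spread little over the libraries. The values ranged from -2.12 to 17.95, and read depth is unknown because the table holds no counts. The sums of the linear values lay between 26609900 and 27496600 per library. Gpr161 itself was not lower in the libraries labelled cKO, with log2 values of 11.80, 11.74 and 11.78 in the floxed control, 11.77, 11.91 and 11.96 in the Cre control and 11.74, 11.95 and 11.94 in the cKO, and the table does not separate the deleted part from the rest of the transcript. The 6 listed midbrain markers, among them En1, Otx2 and Pax7, all passed the filter. Relative to the floxed control, where 18.8% of all tested genes were called lower, 2 of the 6 were. These were Pax7 at -0.48 (limma adjusted p = 0.0060) and Pax3 at -0.37 (limma adjusted p = 0.013). All 6 were lower than in the Cre control and 0 were called by limma, with Pax7 and Pax3 at an unadjusted p of 0.0117 and 0.0105. Samples were compared with limma over 14029 genes (1 cpm or more, counted on linear values, in 3 or more libraries) by its moderated test, two-sided, with p-values adjusted after Benjamini and Hochberg. A gene was called at an adjusted p under 0.05, and called a differentially expressed gene (DEG) when the fold change was also over 1.5. The study describes its replicates as fetuses, and the labels do not tie a library to a fetus, so the p-values measure the spread between these libraries.

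Both retinoic acid binding proteins were higher in the cKO, and the degrading enzyme Cyp26b1 was lower. Crabp1 was 1.98-fold the floxed control and 1.74-fold the Cre control, Crabp2 was 1.39-fold and 1.28-fold, and Cyp26b1 was 0.472-fold and 0.627-fold, with 3 libraries in each group. The other members that could be tested, which are the importer, both synthesizing enzymes and both receptors, did not pass the threshold in either comparison. Cyp26a1 lay under the filter. The cKO libraries serve in both comparisons, which are therefore not independent of each other.

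**Figure D1:**
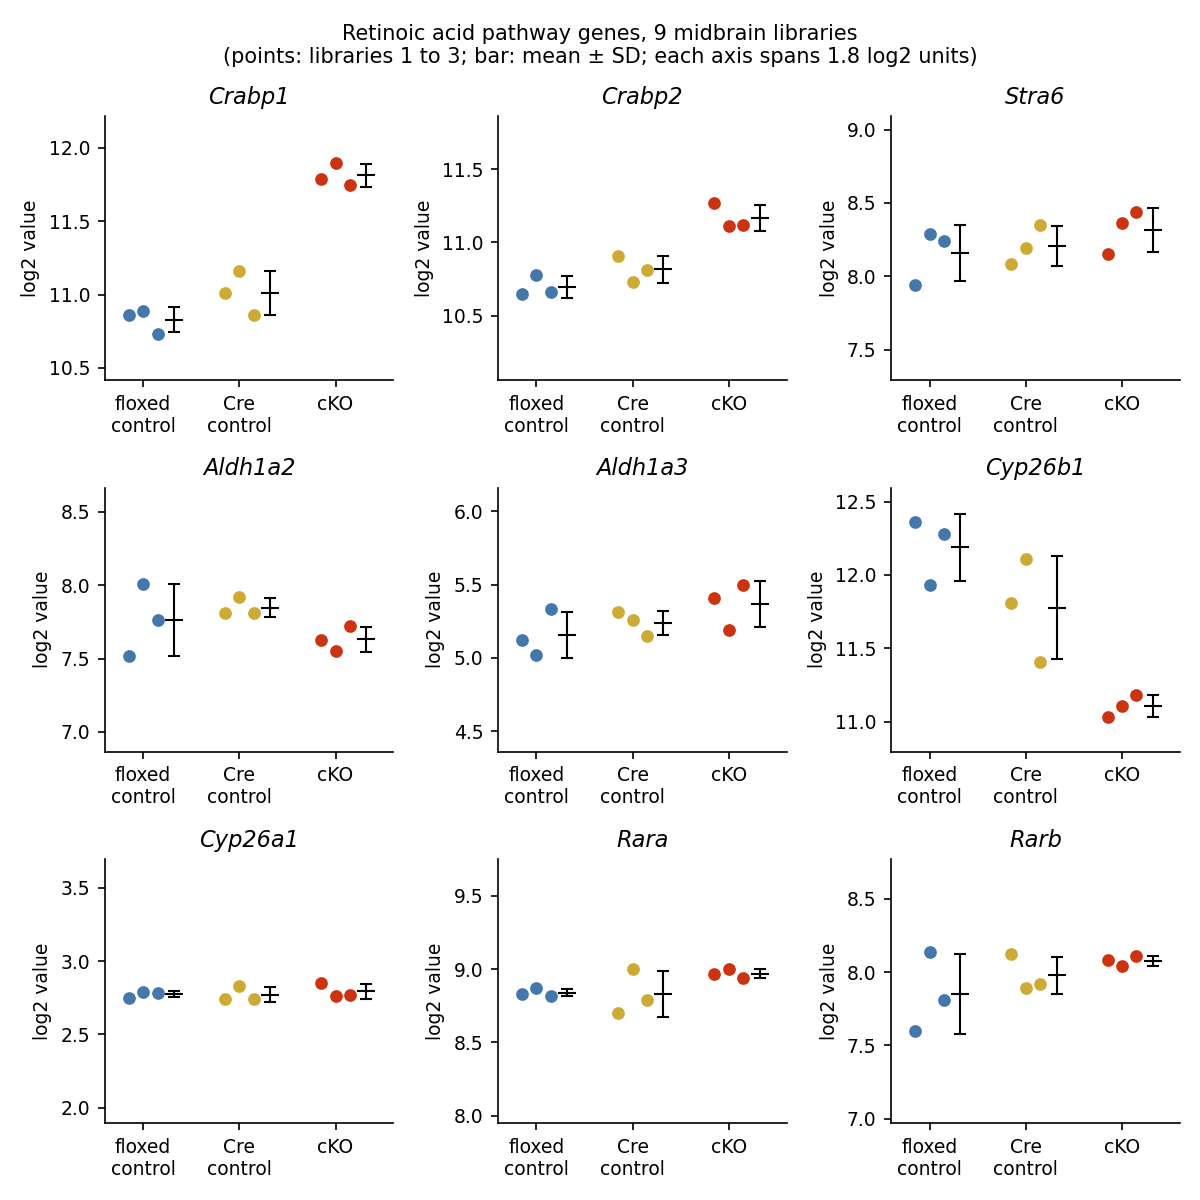
Log2 value (vertical axis, deposited log2 expression) of each of the 9 genes in the 3 floxed control, 3 Cre control and 3 cKO libraries (horizontal axis); points are libraries 1 to 3 in order, and the bar beside them is the mean ± SD. The cKO points lie above all 6 control points for Crabp1 and Crabp2, below all 6 for Cyp26b1, and among them for the other 6 genes.

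Crabp1 lies on chromosome 9 of GRCm38 (chr9:54764748-54773110, plus strand) and encodes a small cytosolic protein that binds retinoic acid and is known for hastening its breakdown. Its log2 values were 10.86, 10.89 and 10.73 in the floxed control, 11.01, 11.16 and 10.86 in the Cre control, and 11.79, 11.90 and 11.75 in the cKO. Every cKO library was above every control library, and 0.59 separated the lowest cKO from the highest control value. The group means were 10.83 ± 0.088 (SD, n = 3), 11.01 ± 0.15 (SD, n = 3) and 11.81 ± 0.079 (SD, n = 3) in that order. The log2 fold change was 0.99 (SE 0.077, limma adjusted p = 1.3e-04) relative to the floxed control, with a 95% interval of 0.82 to 1.16. Relative to the Cre control it was 0.80 (SE 0.077, limma adjusted p = 9.2e-04), with an interval of 0.63 to 0.97. By unadjusted p, Crabp1 held rank 14 among the 14029 genes in both comparisons. The controls differed by 0.19 in the same direction, which did not pass the threshold (limma adjusted p = 0.26).

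Crabp2 (chr3:87948666-87953376, plus strand) encodes the related protein that is known to hand retinoic acid to its receptors, and the gene is itself induced by retinoic acid in many cell types. Its log2 values were 10.65, 10.78 and 10.66 in the floxed control, 10.91, 10.73 and 10.81 in the Cre control, and 11.27, 11.11 and 11.12 in the cKO. The cKO libraries again lay above all controls, here by a gap of 0.20. Crabp2 rose by 0.47 on the log2 scale (95% interval 0.33 to 0.61, limma adjusted p = 7.2e-04) relative to the floxed control and by 0.35 (0.22 to 0.49, limma adjusted p = 0.013) relative to the Cre control. The rise of Crabp2 did not reach a fold of 1.5. The call relative to the Cre control was lost narrowly without cKO replicate 1 (adjusted p = 0.0502) and without Cre control replicate 3 (0.050, just over the limit before rounding), in a range of 0.0038 to 0.0502.

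Within a library, Crabp1 exceeded Crabp2 by log2 differences of 0.20, 0.12 and 0.06 in the floxed control, 0.10, 0.43 and 0.05 in the Cre control, and 0.52, 0.79 and 0.62 in the cKO. The difference was larger in all 3 cKO libraries than in all 6 control libraries. Its mean was 0.52 higher in the cKO than in the floxed control and 0.45 higher than in the Cre control. A two-sided exact permutation test gave p = 0.10 for each, the smallest p that 3 libraries against 3 allow.

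Cyp26b1 (chr6:84571414-84593908, minus strand) encodes a cytochrome P450 that clears retinoic acid, and it was the member with the largest change in the other direction. Its log2 values were 12.36, 11.93 and 12.28 in the floxed control, 11.81, 12.11 and 11.41 in the Cre control, and 11.03, 11.11 and 11.18 in the cKO. Every cKO library was below every control library, by 0.23 at the nearest pair, and the controls spread more widely than the cKO. Group means were 12.19 ± 0.23 (SD, n = 3), 11.78 ± 0.35 (SD, n = 3) and 11.11 ± 0.074 (SD, n = 3). The log2 fold change was -1.08 (SE 0.16, limma adjusted p = 0.0011, 95% interval -1.44 to -0.73) relative to the floxed control. Relative to the Cre control it was -0.67 (SE 0.16, limma adjusted p = 0.031, interval -1.02 to -0.32). The Cre control was 0.41 below the floxed control, which did not pass the threshold (limma adjusted p = 0.24). The call relative to the Cre control was kept in 12 of 19 alternatives, with log2 fold changes between -0.856 and -0.507 and adjusted p between 0.0185 and 0.118. Without Cre control replicate 2 the value was -0.507 (adjusted p = 0.0716). It was -0.636, -0.673 and -0.71 without cKO replicate 1, 2 or 3 (adjusted p = 0.118, 0.0789 and 0.058), -0.673 without floxed control replicate 3 (0.050, just over the limit before rounding) and -0.673 with only the 6 libraries compared (0.0549), so the fall of Cyp26b1 stayed about as large in these 5 fits while its call was lost.

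In the controls, Cyp26b1 had the higher log2 value of the pair Crabp1 and Cyp26b1, and in the cKO the order was turned. Crabp1 minus Cyp26b1 was -1.50, -1.03 and -1.56 in the floxed control, -0.80, -0.95 and -0.55 in the Cre control, and 0.76, 0.80 and 0.57 in the cKO. These differences are per gene and not per length. The mean difference was 2.07 higher in the cKO than in the floxed control and 1.47 higher than in the Cre control (two-sided exact permutation test, p = 0.10 each, the smallest possible). The 6 control libraries had no value above 0. The Cre control stood 0.6 above the floxed control (p = 0.10 by the same exact test), so the controls did not overlap with each other either.

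Cyp26a1 (chr19:37697798-37701536, plus strand), the other listed degrading enzyme and a classic retinoic acid target, was weakly expressed. Its log2 values were 2.75, 2.79 and 2.78 in the floxed control, 2.74, 2.83 and 2.74 in the Cre control, and 2.85, 2.76 and 2.77 in the cKO. These correspond to between 0.246 and 0.265 cpm on the linear values, under the minimum of 1 cpm, and no test was made. The spread over libraries is small at low levels in this table. The median SD was 0.0037 among rows whose mean lay from -3 to 0 and 0.122 among those from 6 to 8.

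Of the 2 synthesizing enzymes, Aldh1a2 (chr9:71215789-71296243, plus strand), the main source of retinoic acid in the early embryo and known from the meninges later, had log2 values of 7.52, 8.01 and 7.76 in the floxed control, 7.81, 7.92 and 7.81 in the Cre control, and 7.63, 7.55 and 7.72 in the cKO. The cKO libraries lay below all Cre controls but inside the range of the floxed controls. The log2 fold change was -0.13 (95% interval -0.37 to 0.11, limma adjusted p = 0.36) relative to the floxed control and -0.21 (-0.45 to 0.02, limma adjusted p = 0.21) relative to the Cre control. Aldh1a3 (chr7:66390890-66427517, minus strand), known from the developing eye and nose, was weakly expressed, with 5.12, 5.02 and 5.33, then 5.31, 5.26 and 5.15, then 5.41, 5.19 and 5.50 in the same order of groups. Its log2 fold changes were 0.21 (-0.01 to 0.42, limma adjusted p = 0.11) and 0.13 (-0.09 to 0.34, limma adjusted p = 0.41). Relative to the floxed control Aldh1a3 passed the threshold when floxed control replicate 3 (adjusted p = 0.0458) or cKO replicate 2 (0.0412) was left out, and the adjusted p ran from 0.0412 to 0.322 among the alternatives.

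Stra6 (chr9:58063788-58153996, plus strand), the membrane receptor that takes up retinol, had log2 values of 7.94, 8.29 and 8.24 in the floxed control, 8.08, 8.19 and 8.35 in the Cre control, and 8.15, 8.36 and 8.44 in the cKO. The 3 groups overlapped. Stra6 had a log2 fold change of 0.16 (95% interval -0.08 to 0.40, limma adjusted p = 0.27) relative to the floxed control and 0.11 (-0.13 to 0.35, limma adjusted p = 0.54) relative to the Cre control. These intervals leave room for a rise of up to 1.32-fold and 1.28-fold.

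The receptor Rara (chr11:98927818-98974942, plus strand), expressed in most tissues, had log2 values of 8.83, 8.87 and 8.82 in the floxed control, 8.70, 9.0 and 8.79 in the Cre control, and 8.97, 9.0 and 8.94 in the cKO. All cKO libraries were above the floxed controls, and Cre control replicate 2 reached the level of the highest of them. The log2 fold change was 0.13 (95% interval -0.03 to 0.29, limma adjusted p = 0.18) and 0.14 (-0.02 to 0.30, limma adjusted p = 0.21) against the 2 controls in turn. Rarb (chr14:16430839-16819156, minus strand), the receptor gene that is itself a retinoic acid target, had 7.60, 8.14 and 7.81, then 8.12, 7.89 and 7.92, then 8.08, 8.04 and 8.11. Its cKO libraries sat inside the range of both control groups. The log2 fold change was 0.23 (-0.04 to 0.49, limma adjusted p = 0.16) and 0.10 (-0.17 to 0.36, limma adjusted p = 0.61). Without floxed control replicate 2, the highest Rarb library, the former was 0.371 (adjusted p = 0.0123), and with a covariate of Y-linked genes it was 0.303 (adjusted p = 0.00952), within a range of 0.00952 to 0.792.

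In the promoter windows searched, Rarb and Cyp26a1 are the members with a match to the paired receptor site that Rar and Rxr bind. Both are shown because their windows held a match, and both are also textbook targets of the pathway. Windows from 250 bases before to 50 bases after each start were taken from RefSeq (GRCm38.p6) for 7 of the 9 genes. Crabp2 and Aldh1a3 had no entry. The half-site AGGTCA was searched on both strands, with AGTTCA as its second form, GGTTCA as the third and GGGTCA as the last, in direct repeats spaced by 1, 2 or 5 bases, and capitals below mark the whole repeat with its spacer. Each stretch is written 5′ to 3′ on the strand of its gene.
Rarb, chr14:16575508-16575534, minus strand: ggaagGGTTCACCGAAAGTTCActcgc
Cyp26a1, chr19:37697771-37697797, plus strand: aaagaTGAACTTTGGGTGAACTaattt
The Rarb repeat runs from 53 to 37 bases before the RefSeq start and reads along the gene. The stretch overlaps 2 exons of the GENCODE annotation that belong to Rarb transcripts with an earlier start. In Cyp26a1 the repeat runs from 32 to 16 bases before the start on the opposite strand, outside any annotated exon of Cyp26a1. Exons of other genes were not checked. Repeats spaced by 5 were found in 0.0974% of 32851 RefSeq windows, those spaced by 1 in 0.222% and those spaced by 2 in 0.268%. Among the 13 windows of members, no other match was found, and none held GACCACCCA, a sequence bound by the Gli factors of hedgehog signaling, which occurred in 0.253% of all windows. A match is a run of letters and was not measured as a bound site. Rarb, with such a repeat, did not pass the threshold, and Cyp26a1 was under the filter.

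The members spanned a wide range of levels. Per kb of exon on the log2 scale, the mean level in the floxed control was 11.14 for Crabp1, 10.80 for Crabp2, 9.77 for Cyp26b1, 6.74 for Rara, 6.58 for Aldh1a2, 6.01 for Stra6, 5.87 for Rarb, 3.01 for Aldh1a3 and 1.93 for Cyp26a1. In the cKO the level per kb was 12.13 for Crabp1, 11.27 for Crabp2 and 8.69 for Cyp26b1, and the other members moved by at most 0.23 from the floxed control, so the first 3 kept their order and drew apart. Rara with Aldh1a2, and Stra6 with Rarb, are neighbours whose levels in the floxed control lie closer together than 1 SD of Aldh1a2 and of Rarb. Kilobases were taken from the union of annotated exons, and a level per kb depends on which exons are used.

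A count of 3 changed genes among 8 tested has to be read against a transcriptome in which many genes moved. In the cKO relative to the floxed control, 2 members were called higher and 1 lower, where 19.5% of all tested genes were called higher and 18.8% lower. Relative to the Cre control the members again numbered 2 higher and 1 lower, and the background was 4.86% higher and 4.85% lower. As DEGs, Crabp1 was higher and Cyp26b1 lower in both comparisons. DEGs made up 1.34% of genes (higher) and 1.58% (lower) relative to the floxed control, and 0.335% and 0.228% relative to the Cre control. Every cKO library was above every control library in 14.7% of tested genes and below in 11.5%. Between the 2 kinds of control, 0 members passed the threshold by limma, though Crabp1 and Cyp26b1 were at an unadjusted p of 0.0354 and 0.0263. Over all genes, 0.0499% were higher and 0.00713% lower in that comparison, which is 8 genes (2451 at an unadjusted p under 0.05). The median log2 fold change was 0.18 over the 8 members against 0.011 over all genes in cKO relative to the floxed control, and 0.12 against 0.012 in cKO relative to the Cre control.

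**Figure D2:**
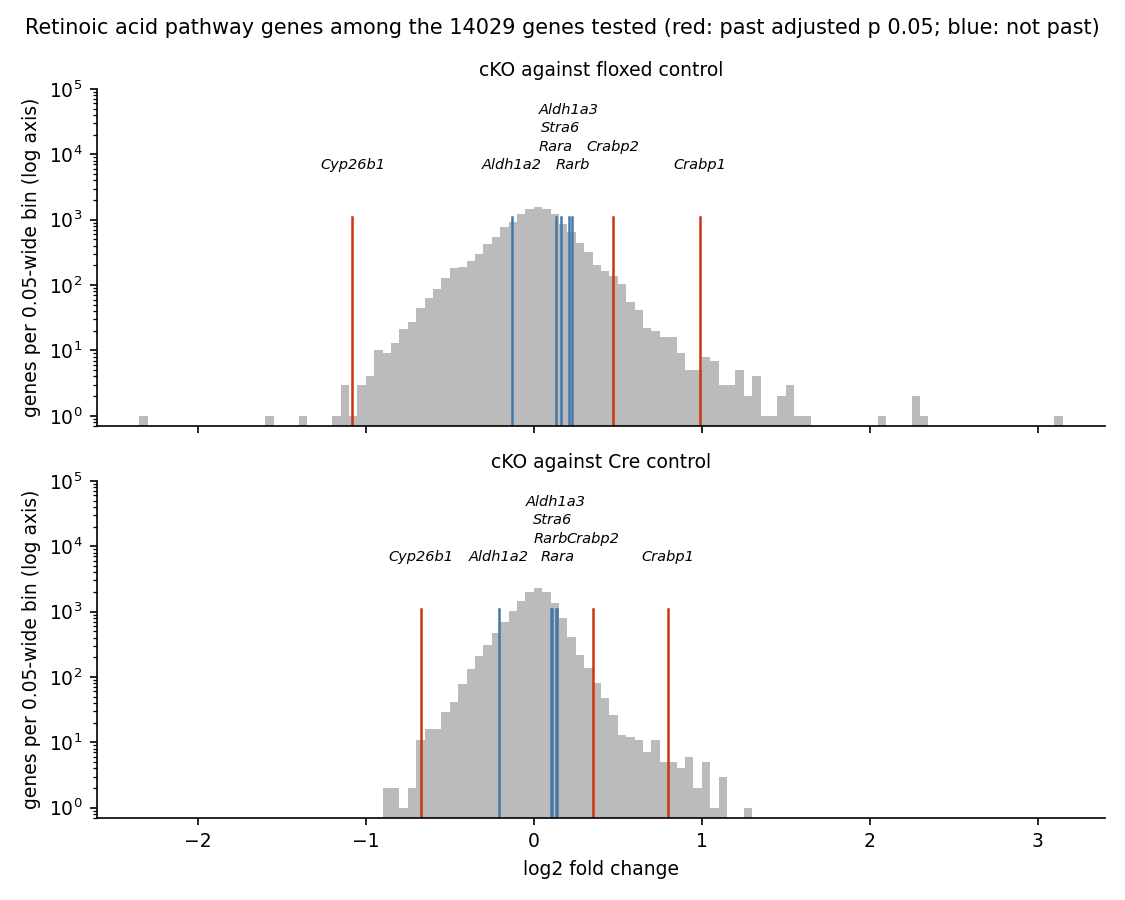
Number of genes (vertical axis, log scale) per bin of log2 fold change (horizontal axis) among the 14029 genes tested, for cKO relative to the floxed control (top) and relative to the Cre control (bottom); vertical lines mark the 8 members tested, red where past an adjusted p of 0.05. Crabp1 (0.99 and 0.80) and Cyp26b1 (-1.08 and -0.67) lie in the thin outer parts of both distributions, and the 5 members not past the threshold lie near the centre.

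Beyond the members, 45 further genes of the pathway were listed by role. Of these, 43 were in the table, 13 were under the filter and 30 were tested, and 2 listed genes were not analysed here. Relative to the floxed control 3 of the 30 were called higher and 6 lower, where 19.5% and 18.8% of all tested genes were, with a median log2 fold change of -0.09. Relative to the Cre control 1 was called higher and 0 lower by limma, where 4.86% and 4.85% of all tested genes were, with a median of -0.03.

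Among the 6 receptor genes tested, 2 rose and 1 fell relative to the floxed control, close to the shares of all tested genes (19.5% and 18.8%) for so few genes. Rarg, the receptor known for its part in skeletal and skin development, had log2 values of 8.55, 8.88 and 8.32 in the floxed control, 8.85, 9.14 and 8.97 in the Cre control, and 9.22, 9.17 and 9.18 in the cKO. The cKO lay above all controls, by 0.03 from Cre control replicate 2. The log2 fold change was 0.61 (95% interval 0.33 to 0.89, limma adjusted p = 0.0043) relative to the floxed control, the only DEG among these 30 genes, and 0.21 (-0.07 to 0.48, limma adjusted p = 0.29) relative to the Cre control. With the mean of the meninges and head mesenchyme markers as a covariate the first value was 0.177 (adjusted p = 0.134), and with the mean of the hindbrain markers it was 0.542 (adjusted p = 0.156). Both marker lists themselves differed between the cKO and the floxed control, so a call lost under either covariate does not measure a part of that tissue. The genes in the rest of this paragraph and in the next 2, apart from Meis1 and Meis2, were chosen after their values were seen. Rxra, the shared partner of the receptors, was the pathway gene outside the 9 that rose against both controls, by 0.38 (limma adjusted p = 6.1e-04) and 0.26 (limma adjusted p = 0.014), with the cKO at 10.96, 10.89 and 10.84 and the controls between 10.47 and 10.68. The call of Rxra relative to the Cre control was lost without Cre control replicate 3 (0.258, adjusted p = 0.0522) or cKO replicate 1 (0.233, adjusted p = 0.0553), with values little changed. Rxrg fell by 0.37 (limma adjusted p = 0.0036) relative to the floxed control, and was -0.23 (adjusted p = 0.068) relative to the Cre control. The first call of Rxrg was lost with the mesenchyme covariate (-0.349, adjusted p = 0.0769) and with the hindbrain covariate (-0.25, adjusted p = 0.208). Rxrb was 0.03 and 0.04 and did not pass.

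Some genes for the steps before retinoic acid were called relative to the floxed control. Over all tested genes, 19.5% were called higher and 18.8% lower in that comparison. Relative to the Cre control these shares were 4.86% and 4.85%. The counts in this paragraph are to be read beside them. Of 10 tested genes for esterifying and oxidizing retinol, Dhrs4, a retinal reductase, rose by 0.33 (limma adjusted p = 0.0019), Dhrs3, which turns retinaldehyde back into retinol, fell by 0.45 (limma adjusted p = 0.0046), and the other 8 did not pass. Among these 8, the retinol oxidizing Rdh10 was at 0.24 (limma unadjusted p = 0.0219, adjusted p = 0.0554) and Dgat1 at -0.14 (limma unadjusted p = 0.0341, adjusted p = 0.0777). Of the 3 tested genes for uptake and transport, 0 were called by limma relative to the floxed control, with Ttr at an unadjusted p under 0.05. Dhrs3 and Dhrs4 did not pass relative to the Cre control (-0.30 and 0.18), although both did with Y-linked genes as a covariate (-0.321, adjusted p = 0.0402, and 0.192, adjusted p = 0.0377), and Dhrs4 also without Cre control replicate 1 (adjusted p = 0.0124). Relative to the floxed control the call of Dhrs3 was lost with the mesenchyme covariate (-0.392, adjusted p = 0.107) and the hindbrain covariate (-0.415, adjusted p = 0.15), and that of Dhrs4 with the hindbrain covariate (0.24, adjusted p = 0.141). Of the 4 binding proteins, the 2 Crabp genes were higher, and Fabp5 and Fabp7 were at -0.09 and -0.16, neither called. Among 5 co-regulators of the receptors, the coactivator Ncoa1 fell by 0.22 (limma adjusted p = 0.0058) relative to the floxed control, and none passed relative to the Cre control, although Ncoa1 did without Cre control replicate 1 (adjusted p = 0.0216). The call of Ncoa1 relative to the floxed control was lost with the mesenchyme covariate (-0.268, adjusted p = 0.0517) and the hindbrain covariate (-0.15, adjusted p = 0.272).

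Genes that retinoic acid is known to induce in many cell types did not move in one direction. Of 16 listed, 12 were tested, 1 was higher (Crabp2) and 4 lower (Dhrs3, Meis1, Meis2 and Zfp703) relative to the floxed control, 7 did not pass, and the median log2 fold change was -0.11. Beside these counts stand 19.5% of all tested genes called higher and 18.8% called lower. Relative to the Cre control Crabp2 alone was called, and the median was -0.01. Meis2, a homeobox gene of the tectum, had log2 values of 12.66, 12.39 and 12.71 in the floxed control, 12.19, 12.31 and 12.14 in the Cre control, and 12.01, 11.96 and 12.08 in the cKO. The cKO lay below all controls, and the Cre control lay below the floxed control by 0.37, which passed the threshold only without floxed control replicate 2 (adjusted p = 0.0351). Its log2 fold change was -0.57 (limma adjusted p = 9.1e-04) relative to the floxed control and -0.20 (limma adjusted p = 0.13) relative to the Cre control, and the first call was lost with the hindbrain covariate (-0.466, adjusted p = 0.0817). Meis1, its close relative, was at 11.12, 10.93 and 11.24, then 10.78, 10.88 and 10.49, then 10.62, 10.65 and 10.65. The Cre control and the cKO overlapped for Meis1, with a log2 fold change of -0.46 (limma adjusted p = 0.0055) relative to the floxed control and -0.08 (limma adjusted p = 0.62) relative to the Cre control. The call of Meis1 was lost with the mesenchyme covariate (-0.293, adjusted p = 0.192) and the hindbrain covariate (-0.281, adjusted p = 0.289). Zfp703 was at -0.26 (limma adjusted p = 0.048) relative to the floxed control. The call of Zfp703 was lost without replicate 2 or 3 of the floxed control, replicate 3 of the Cre control or replicate 1 or 3 of the cKO (adjusted p between 0.0514 and 0.167). It was also lost with Y-linked genes as a covariate (0.0665), without a variance trend (0.0521), without a filter (0.0656) and with the mesenchyme covariate (-0.336, adjusted p = 0.156), and with the hindbrain covariate the value was 0.0561.

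**Figure D3:**
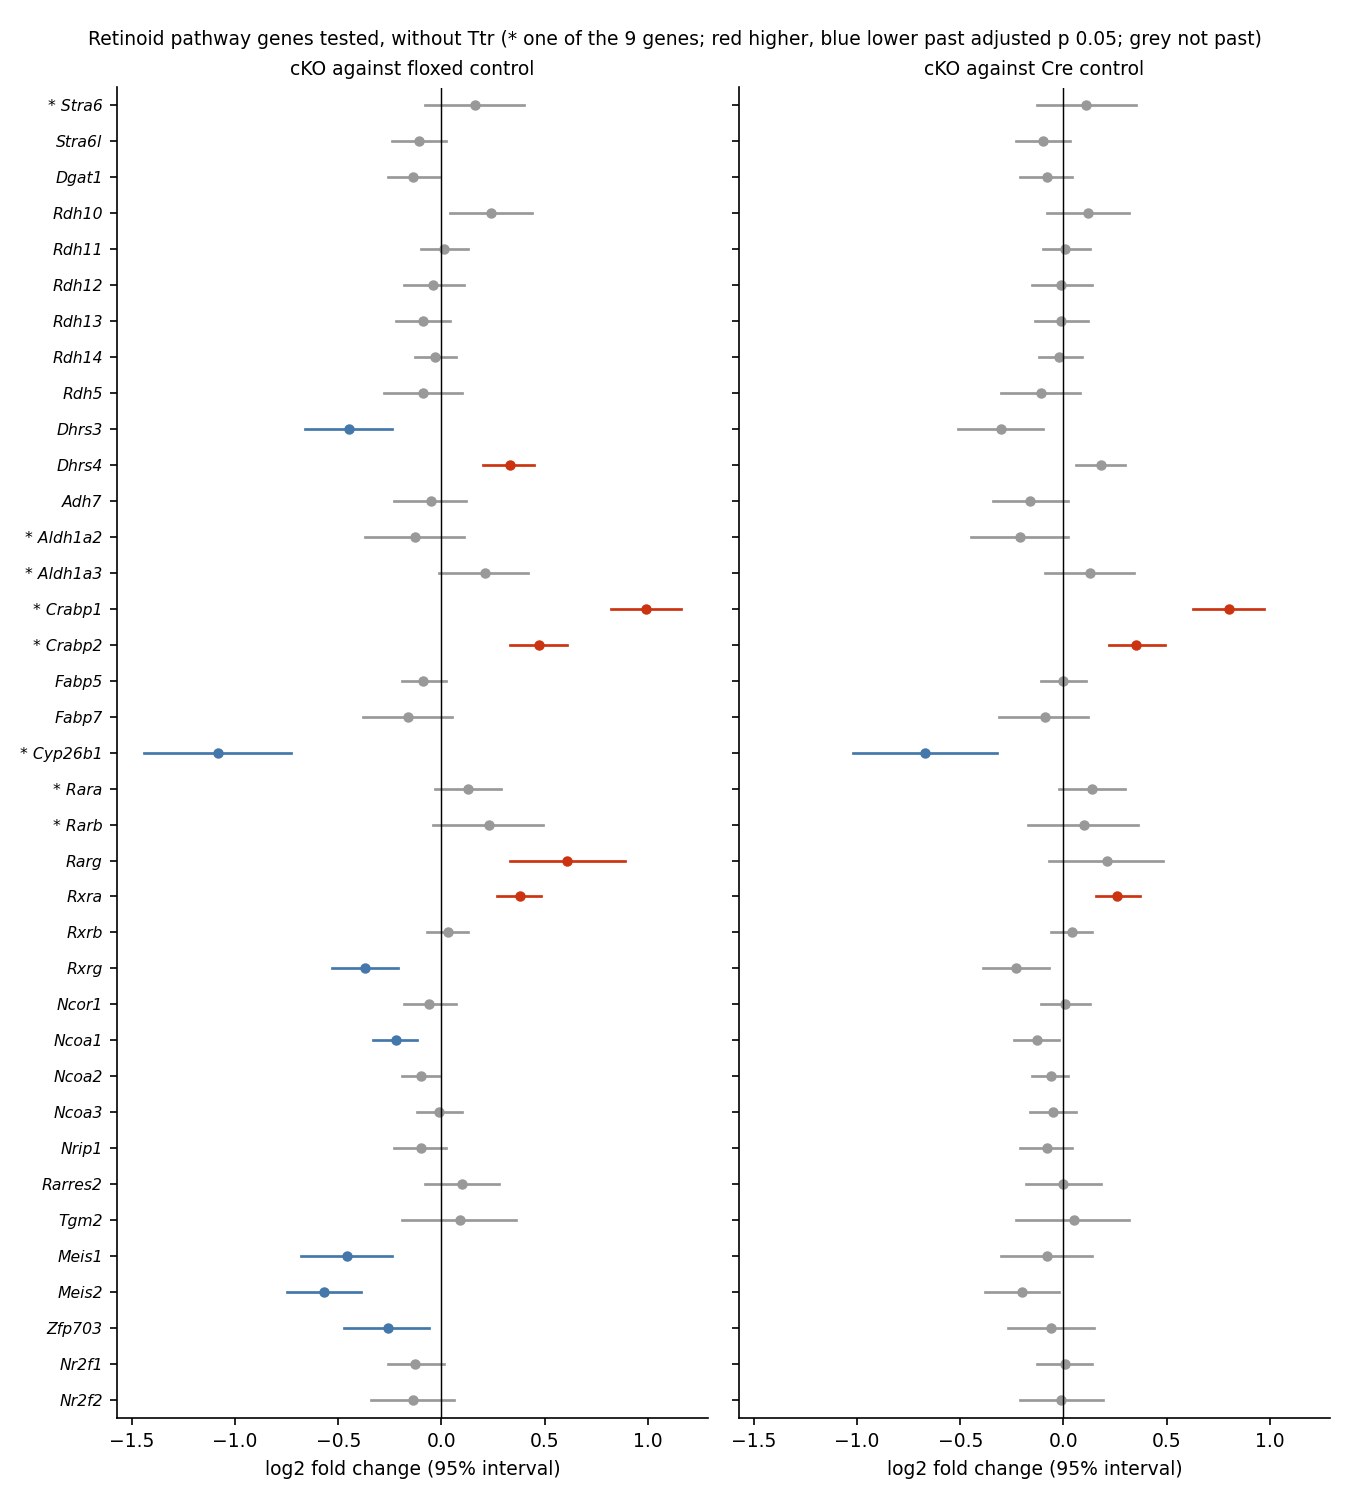
Log2 fold change with its 95% interval (horizontal axis) of the tested pathway genes (rows, grouped by role from uptake to targets), in cKO relative to the floxed control (left) and relative to the Cre control (right); Ttr, at -2.32 with an interval of -4.17 to -0.46 on the left, is left out so that the others can be read. Crabp1, Crabp2 and Rxra are red and Cyp26b1 is blue in both panels, and the other genes past an adjusted p of 0.05 on the left are grey on the right.

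Marker RNA of several cell types moved with genotype, and bulk RNA cannot tell fewer cells of a type from less RNA per cell. All 6 neuron markers, Dcx and Tubb3 among them, were lower in the cKO than in the floxed control and called, and 3 of 6 were called lower than in the Cre control. Their summed log2 level was 16.80 to 16.91 in the floxed control, 16.48 to 16.79 in the Cre control and 16.31 to 16.48 in the cKO. Of 6 neural progenitor markers, 4 were called higher than in the floxed control and 3 relative to the Cre control, Sox2, Nes and Vim in both, with sums of 16.22 to 16.29, 16.21 to 16.35 and 16.43 to 16.50. The part of this shift in the values of Crabp1, Crabp2 and Cyp26b1 was not tested.

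Markers of tissue around the midbrain also moved. All 11 markers of meninges and head mesenchyme were higher in the cKO, 9 called relative to the floxed control and 0 relative to the Cre control by limma, with sums of 14.93 to 15.78 in the floxed control, 15.28 to 15.99 in the Cre control and 16.02 to 16.08 in the cKO. With the mean of these markers as a covariate, an alternative chosen after seeing the data, Crabp1 was at 0.847 (adjusted p = 0.0106) relative to the floxed control and 0.747 (adjusted p = 0.00341) relative to the Cre control. Under the same covariate Crabp2 was at 0.456 (adjusted p = 0.0294) and 0.347 (adjusted p = 0.0389), and Cyp26b1 was at -0.923 (adjusted p = 0.0459) and -0.61 (adjusted p = 0.0808), the latter no longer called. Of the hindbrain markers, Hoxa2, Hoxb2 and Hoxb3 were lower in the cKO than in the floxed control and called, while Gbx2 was at 0.09 and not called. Relative to the Cre control 0 of 4 tested were called by limma, with the 3 Hox genes at 0.02, 0.07 and -0.02. The same 3 were already at -0.87, -0.96 and -0.91 in the Cre control relative to the floxed control. These differences were not called (limma unadjusted p = 2.23e-04, 0.00188 and 0.00515, adjusted p = 0.113, 0.145 and 0.166). Egr2 and Hoxb4 were under the filter. The sums of the list, in which Gbx2 was the largest term, were 8.80 to 9.29, 8.46 to 8.86 and 8.62 to 8.73. With the mean of the tested hindbrain markers as a covariate, also chosen after seeing the data, Crabp1 was at 0.989 (adjusted p = 0.016) relative to the floxed control, and Crabp2 at 0.415 (adjusted p = 0.0652) and Cyp26b1 at -0.936 (adjusted p = 0.0819) were no longer called, while relative to the Cre control all 3 were called, with adjusted p of 0.00213, 0.0201 and 0.0435. Apart from Gbx2, these markers were themselves lower in the Cre control and the cKO than in the floxed control. The covariate thus overlaps with genotype, and a call lost under it relative to the floxed control does not measure a part of hindbrain tissue.

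Endothelial, red cell and choroid plexus markers varied as well, and their part in the values of the 9 genes was not tested. Of all tested genes, 19.5% were called higher and 18.8% lower relative to the floxed control. A count of 1 in a list of few genes cannot be told apart from these shares. Of 8 endothelial markers 5 were called higher than in the floxed control and 0 relative to the Cre control by limma, with sums of 12.62 to 12.98, 12.75 to 13.08 and 13.02 to 13.12. Of 7 erythroid markers 5 were called higher than in the floxed control and 2 relative to the Cre control, with sums of 17.17 to 17.93, 17.43 to 17.64 and 17.80 to 18.76. The sum of the choroid plexus markers ran from 11.46 to 13.83 in the floxed control, 9.86 to 12.57 in the Cre control and 10.35 to 11.39 in the cKO. Of these 5 markers, 1 was called lower than in the floxed control and 0 relative to the Cre control by limma. Ttr, the carrier of retinol binding protein, is 1 of these 5 genes and the largest term of their sum in each library, so the sum mostly restates it. Its log2 values were 11.13, 13.65 and 13.32 in the floxed control, 10.51, 12.35 and 8.95 in the Cre control, and 11.04, 9.67 and 10.46 in the cKO. Its log2 fold change of -2.32 relative to the floxed control did not pass the threshold (limma adjusted p = 0.0503). In the same comparison Clic6 and Kcne2 were at -1.36 and -1.56, and Folr1 and Kl at -0.25 and -0.08. Of the 6 dopaminergic markers, 4 and 3 were called lower against the 2 controls in turn, with sums of 11.59 to 11.69, 11.47 to 11.75 and 11.31 to 11.50. Of 6 retina and eye markers 4 were under the filter, and of 5 neural crest glia markers 2 were, with 1 retina marker called lower and 1 glia marker called higher than in the floxed control. Relative to the Cre control 0 markers of either list were called by limma.

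**Figure D4:**
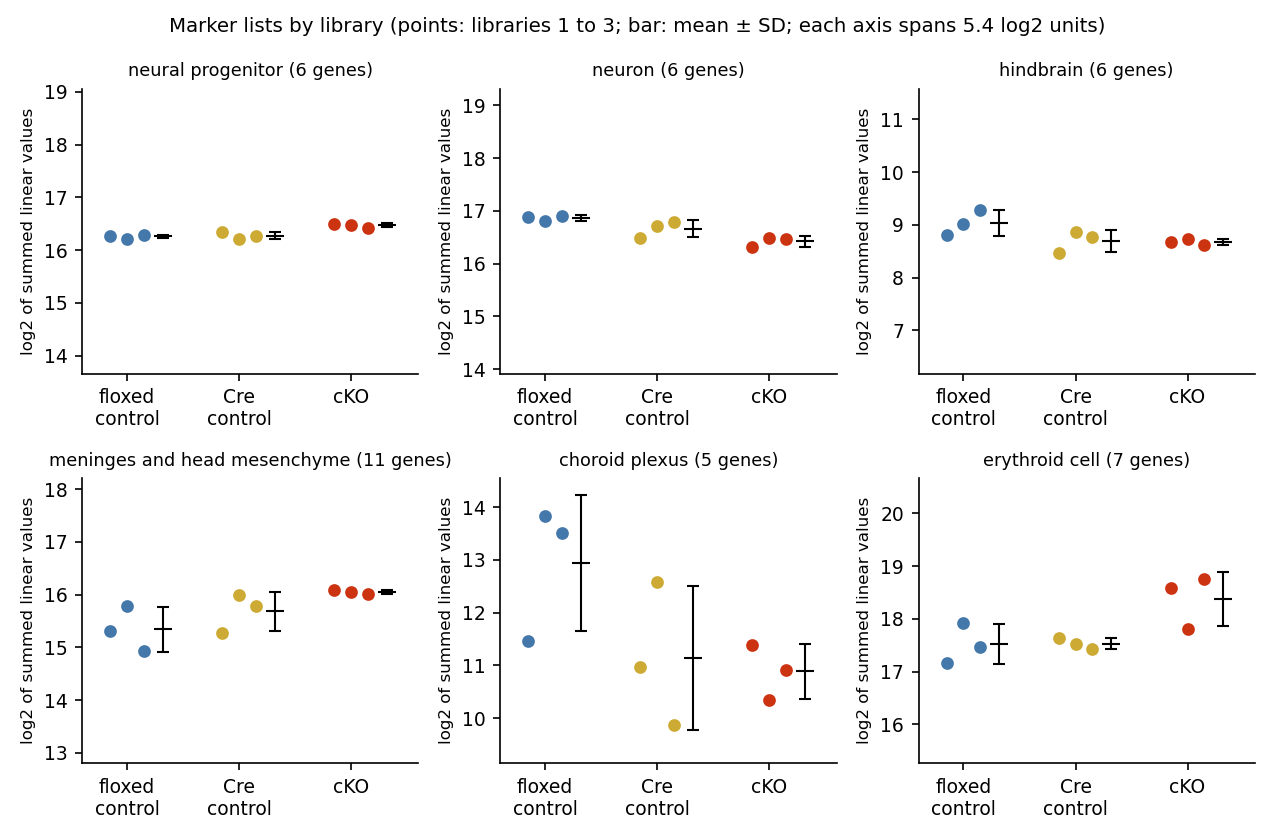
Log2 of the summed linear values of 6 marker lists (vertical axis) in each library (horizontal axis, by group); points are libraries 1 to 3 in order, and the bar is the mean ± SD of the group. The cKO is above the controls for the progenitor list, at or below the lowest control for the neuron list, and just above the highest control (15.99) for the mesenchyme list, and the choroid plexus list spreads over several log2 units in the controls.

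The genes whose values ran most like Crabp1 over the 9 libraries were Sertad3 (Pearson r = 0.987, Spearman rho = 0.983), Pappa (0.981 and 0.917), Inppl1 (0.979 and 0.933), Pgam1 (0.977 and 0.867) and Trmt2a (0.975 and 0.883). These correlations describe libraries of a group that share their genotype, and 502 of the 14028 other tested genes had r over 0.9. The 5 genes were picked on the same values, so a rise alongside Crabp1 was built into the choice, and the p-values below are descriptions. Pappa, a secreted protease that frees insulin-like growth factors, had the largest change of the 5. It was at 8.33, 8.23 and 8.22 in the floxed control, 8.49, 8.44 and 8.41 in the Cre control, and 9.40, 9.40 and 9.27 in the cKO. Pappa rose by 1.10 on the log2 scale (limma adjusted p = 1.7e-05) relative to the floxed control and by 0.91 (limma adjusted p = 7.5e-05) relative to the Cre control. Pgam1, a glycolytic enzyme, was at 0.46 (adjusted p = 1.6e-04) and 0.37 (adjusted p = 0.0013), and Inppl1, a phosphoinositide phosphatase, at 0.29 (adjusted p = 3.8e-04) and 0.21 (adjusted p = 0.0075). Sertad3 was at 0.22 (adjusted p = 0.0071) and 0.15 (adjusted p = 0.080). Trmt2a was at 0.11 (adjusted p = 0.044) and 0.08 (adjusted p = 0.20), and its call was lost in all fits with 1 library left out but that without Cre control replicate 1 (adjusted p between 0.0566 and 0.127).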

How the data were processed

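Poly-A selected RNA of E13.5 midbrain tissue was sequenced in 9 libraries, 3 per genotype. The authors deposited 1 table of log2 expression values, on a common scale across libraries. Its unit was inferred from the range of the values, and the transformation is not given in the sources used here. The submitters' processing notes list FastQC 0.10.1, kallisto 0.46.1, DESeq2 and mm10. Of 27360 rows, 5764 had no gene name, and 240 rows with a repeated name were dropped.

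A limma 3.58.1 model in R 4.3.3 gave each genotype a mean over all 9 libraries, with eBayes moderation and a variance trend, for 14029 genes with 1 cpm or more, counted on linear values, in 3 or more libraries (4.73 to 4.78 on the log2 scale). Tests were two-sided, with Benjamini-Hochberg adjustment over all genes tested. Read depth is unknown, so no interval from counts could be given. On simulated data with 200 genes changed by 1 on the log2 scale, 99.5%, 98% and 100% were recovered for cKO against floxed control, cKO against Cre control and Cre control against floxed control. In the same order 13, 9 and 8 unchanged genes were called. The simulated noise was drawn for each gene on its own, with no shift shared across the genes of a library. These counts therefore do not measure the error rate in the real libraries. Smaller changes, such as those of Crabp2 and of the members not called, were not simulated.

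The members and lists were chosen with earlier results of these data known. A further 3 listed genes are not reported here and enter no count of a list. Named were the 9 members, other pathway genes that were DEGs in the cKO or, with fewer than 3 of these, the 3 with the largest called change against the floxed control (Rarg, Meis2 and Meis1), and the 5 genes most correlated with Crabp1. Positions came from the GENCODE annotation of GRCm38, and promoter windows from RefSeq. Marker lists were summed on the linear scale. Alternatives were no filter, a filter of 10 cpm, only the 6 libraries compared, replicate numbers as a block, no variance trend, median centring, quantile normalization, Y-linked genes as a covariate, and each library left out. The marker covariates were added after seeing the data, and both overlap with genotype relative to the floxed control. The qRT-PCR, Western blot and imaging experiments were not analysed here.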

Additional observations from a re-analysis of the deposited data

How the results depend on the processing

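Crabp1 kept its direction and its call in both cKO comparisons under all 19 alternatives, with log2 fold changes of 0.847 to 1.02 against the floxed control and 0.726 to 0.877 against the Cre control. Against the Cre control, Crabp2 kept its call in 17 of 19 and Cyp26b1 in 12 of 19. Against the floxed control each was lost only with the hindbrain covariate, which overlaps with genotype there and left 1 member called. The members called against the Cre control numbered 1 to 3 over the fits that left out 1 library, with 1 without cKO replicate 1. Among the alternatives for single genes, 1063 planned values kept direction and side of the threshold, 30 lost and 9 gained a call, and 8 turned, while of the added ones 105 kept both, 20 lost a call and 7 turned.

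Counts over all genes moved more. Against the floxed control, 1601 genes passed with the mesenchyme covariate and 505 with the hindbrain covariate, and 231 DEGs with the latter. Against the Cre control, 873 passed without a filter, 437 with only the 6 libraries compared, 457 with the mesenchyme covariate, and 237 to 3292 with 1 library left out (3292 without Cre control replicate 1, 237 without cKO replicate 1, 246 without Cre control replicate 3). Between the controls, 5 passed without a filter, 3 with 6 libraries, 13 without a variance trend, 29 with the Y-linked covariate, 1 with either marker covariate, and 1 to 57 with 1 library left out (57 without Cre control replicate 1). DEGs there numbered 2 without a filter, 1 with either marker covariate, and 1 to 28 with 1 library left out. The causes were not tested.

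Values that turned sign were uncalled, apart from Zfp703 against the floxed control. Between the controls, with 1 library left out, Aldh1a2 ran from -0.0388 to 0.204, Stra6 from -0.0572 to 0.118 and Rara from -0.097 to 0.0529, and against the Cre control Meis1 ran from -0.191 to 0.00158 and Zfp703 from -0.109 to 0.0263. With the mesenchyme covariate Aldh1a2 was -0.0437 and Stra6 -0.0109 between the controls, and Rara -0.00831 against the floxed control. With the hindbrain covariate Aldh1a2 was 0.0445 and Zfp703 0.0561 against the floxed control, and Rara 0.0975 and Zfp703 0.117 between the controls.

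The replicate block gave 3, 3 and 0 members and 5683, 1774 and 9 genes in the 3 comparisons, and of the genes named it ended only the call of Trmt2a against the floxed control. Deviations of libraries with the same number correlated between -0.027 and 0.26, and of those with different numbers between -0.28 and 0.16. The 2 ranges overlap, the first lying somewhat higher. Whether the numbers pair the libraries cannot be told from so few libraries. Leaving out a library leaves 2 in its group. The small spread of low values limits what can be said of Cyp26a1 and Aldh1a3, and the unknown depth leaves their counting error open to no estimate.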

Other observations

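Cyp26b1 had company in the libraries that the pathway lists do not show. The genes below were chosen after their values were seen. The tested genes whose values ran most like Cyp26b1 over the 9 libraries were Tshz1 (Pearson r = 0.995, Spearman rho = 1), Skor2 (0.983 and 0.983), Otof (0.981 and 1), Rab4b (0.979 and 0.983) and Snx11 (0.979 and 0.983), and 233 of 14028 genes had r over 0.9. Libraries of a group share their genotype, so these are descriptions. A fall alongside Cyp26b1 was built into the choice of these genes, so the p-values below are no separate test. Tshz1, Rab4b and Snx11 changed less than Skor2 and Otof. They were at -0.19, -0.11 and -0.23 relative to the floxed control (limma adjusted p = 0.0049, 0.049 and 0.0026). Relative to the Cre control they were at -0.12, -0.06 and -0.15 (limma adjusted p = 0.084, 0.35 and 0.051). Skor2, a transcriptional corepressor known from Purkinje cells, was at 8.48, 8.17 and 8.47 in the floxed control, 8.0, 8.33 and 7.44 in the Cre control, and 7.32, 7.35 and 7.56 in the cKO, with the lowest Cre control inside the range of the cKO. Skor2 fell by 0.97 (limma adjusted p = 0.0036) from the floxed control, and its difference to the Cre control was -0.52 (limma adjusted p = 0.10). Otof, a calcium sensor of synaptic release in the inner ear, was at 6.70, 6.38 and 6.66, then 6.32, 6.57 and 6.29, then 5.91, 5.98 and 6.01. Its cKO values were below all controls, by -0.61 (limma adjusted p = 0.0014) and -0.43 (limma adjusted p = 0.028) from the floxed control and the Cre control on the log2 scale.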
